A study of Mus musculus with 12 samples.

Results

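The intercalated disc junction genes examined here are 10 of the 23337 genes in the count tables: Gja1, Cdh2, Ctnna1, Ctnna3, Dsp, Pkp2, Jup, Dsg2, Dsc2 and Tjp1. They were chosen by gene symbol for the known place of their proteins in the disc, with earlier results of these data known, and all 10 were listed in both tables and passed the filter on low counts in every comparison. RNA was measured in 12 libraries of mouse cardiomyocytes (CMs), 3 in each of 4 groups. KO mice carried loxP sites in both copies of Srf (Srf F/F), and CTRL mice carried them in 1 copy (Srf F/+), so CTRL CMs kept an intact copy. Every mouse of both genotypes also carried a Cre-activated fluorescent reporter in Rosa26 (Cas9GFP, tdTomato or mTmG) and received AAV9-cTNT-Cre, a virus in which the cardiac troponin T promoter drives Cre in CMs. The virus was injected at postnatal day (P) 1 with collection at P14 (neonatal KO), or at P60 with collection at P90 (adult KO). The dose was low, so that only a part of the CMs of each heart lost Srf, and the fluorescent CMs were sorted out by flow cytometry after collagenase perfusion. The mice were of mixed background, and the reporter and sex of each library are not given in the labels.

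CMs are joined end to end at the intercalated disc, where several kinds of contact are packed together. Gap junctions are channels that let ions pass from cell to cell, adherens junctions tie the actin of the myofibrils of neighbouring cells together, and desmosomes tie their intermediate filaments. In the heart after birth, these contacts gather from the whole cell surface toward the cell ends, and mutations in desmosomal genes are a known cause of arrhythmogenic cardiomyopathy. Serum response factor (SRF), the protein made from Srf, is a DNA-binding factor of actin and sarcomere genes that recognises a sequence called the CArG box.

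The targeted gene and the purity of the sort were checked first. In counts per 1000000 (CPM, scaled by the TMM factors of edgeR over the 12 libraries), Srf was at 63.9, 57.1 and 49.4 CPM in P14 CTRL and at 32.1, 27.5 and 9.74 CPM in P14 KO. It was at 71.1, 59.1 and 81.1 CPM in P90 CTRL and at 32.8, 28.9 and 28.1 CPM in P90 KO. The KO libraries lay below all CTRL libraries at both stages, and P14 KO replicate 3 was the lowest. The fitted log2 fold change was -1.30 ± 0.36 (SE, n = 3 per group) at P14, with an adjusted p of 0.0628 by edgeR and 0.00224 by DESeq2, and -1.23 ± 0.13 at P90 (adjusted p = 0.00347 by edgeR). At P14 it crossed the threshold without P14 KO replicate 3 (-0.92, adjusted p = 0.0474). The 8 CM markers checked summed to 93260 to 105900 CPM in P14 CTRL and 72920 to 80810 CPM in P14 KO. At P90 they summed to 94030 to 103400 and 84970 to 88630 CPM, so the sum was lower in every KO library at both stages. Myh6, the highest of the 8, had means of 55689 CPM in P14 CTRL and 35488 CPM in P14 KO. Its P90 means were 55324 CPM in CTRL and 40546 CPM in KO. The study names Myh6 as a direct target of Srf, so the sum cannot compare the purity of KO and CTRL sorts. The fitted change was above 0 for 2 of the 8 and below 0 for 6 at P14. At P90 it was above 0 for 5 and below 0 for 3, so the sum does not stand for all 8. The part of these differences in the results was not tested. The 8 endothelial markers summed to 234 to 525 CPM, the 8 fibroblast markers to 52.1 to 349 CPM, the 7 macrophage markers to at most 15.2 CPM and the 4 epicardial markers to at most 11.8 CPM. Of the 5 erythroid markers, 4 were at 0 in all libraries. The 8 smooth muscle and pericyte markers summed to 1290 to 1732 CPM in P14 CTRL and 519 to 809 CPM in P14 KO, and to 714 to 949 and 522 to 603 CPM at P90. Most of the P14 difference lay in Acta2, an actin gene that immature CMs also express, with means of 1088 CPM in P14 CTRL and 298 CPM in P14 KO. The smooth muscle myosin Myh11 was at 17.9 and 20.9 CPM. At P90 the highest of the 8 were Abcc9, with means of 526 CPM in CTRL and 381 CPM in KO, and Acta2, with 237 and 113 CPM. The fitted P90 change was above 0 for 5 of the 8 and below 0 for 3. Total counts per library ran from 9740389 to 23103460. Of the 10 genes, the lowest in any library was Ctnna3 with 347 counts, so that depth did not limit their detection. Since these are bulk samples, fewer cells of a type and less RNA per cell cannot be told apart. The labels do not tie the libraries to animals, while the study counts hearts as the replicates of Srf in its sorted CMs. The p-values measure the spread between these libraries.

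Coordinates are those of the tables (mm10). Gja1 lies on chromosome 10 at 56377300 to 56390419, Dsp on chromosome 13 at 38151294 to 38198577, Pkp2 on chromosome 16 at 16213345 to 16272712, Jup on chromosome 11 at 100368856 to 100397790 and Tjp1 on chromosome 7 at 65296165 to 65371244. Ctnna3 takes up 63430098 to 65003667 of chromosome 10, by far the longest span of the 10. Cdh2, Ctnna1, Dsg2 and Dsc2 are all on chromosome 18, with Dsc2 (20030798 to 20059505) and Dsg2 (20558116 to 20604526) in the same desmosomal cadherin cluster. The counts were taken over exons, whose summed length ran from 2891 bp in Pkp2 to 9592 bp in Dsp, and no exon of the 10 genes overlapped that of another listed gene.

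To compare the genes with each other, counts were divided by exon length and then scaled to a sum of 1000000 per library (TPM). Gja1, Ctnna1 and Cdh2 led. Gja1, which encodes connexin 43, the main gap junction channel of ventricular CMs, had a TPM of 787 ± 208 (SD, n = 3) in P14 CTRL and 761 ± 127 in P90 CTRL, and ranked 171 and 189 among all 23337 genes. Ctnna1, which encodes αE-catenin, the actin-binding subunit of the adherens junction, was at 611 ± 69.6 TPM in P14 CTRL and 390 ± 25.0 TPM in P90 CTRL. Cdh2 (N-cadherin, the transmembrane adhesion receptor of the adherens junction) followed with 210 ± 42.3 and 192 ± 11.3 TPM. The desmosomal plaque genes came next. Pkp2 (plakophilin 2, an armadillo protein of the plaque) was at 162 ± 20.3 and 161 ± 7.63 TPM, and Jup (plakoglobin, shared by desmosomes and adherens junctions) at 162 ± 42.5 and 177 ± 13.1 TPM. Dsp (desmoplakin, the link to the filament desmin) was at 101 ± 31.3 and 106 ± 9.65 TPM. The desmosomal cadherins Dsc2 (desmocollin 2) and Dsg2 (desmoglein 2) lay between 36.3 and 78.8 TPM in the CTRL libraries. Ctnna3 (αT-catenin, a second α-catenin made chiefly in heart and testis) and Tjp1 (ZO-1, a scaffold at the edge of gap junctions) were lowest, at 34.1 ± 6.23 and 27.7 ± 6.45 TPM in P14 CTRL and at 17.8 ± 1.17 and 21.8 ± 2.33 TPM in P90 CTRL.

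The ranges of several neighbours in this order overlapped between libraries. In P14 CTRL the libraries overlapped between Gja1 and Ctnna1, from Cdh2 through Pkp2, Jup and Dsp to Dsc2, and from Dsg2 through Ctnna3 to Tjp1. In P90 CTRL overlaps were left only between Cdh2 and Jup and between Jup and Pkp2. Within each CTRL library, neighbours nonetheless kept the order of their means, except for Pkp2 and Jup. Pkp2 had a higher TPM than Jup in P14 CTRL replicates 1 and 2 and in P90 CTRL replicate 2, and a lower one in the other CTRL libraries. Dsg2 and Dsc2 held opposite places at the 2 stages, as did Ctnna3 and Tjp1.

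**Figure D1:**
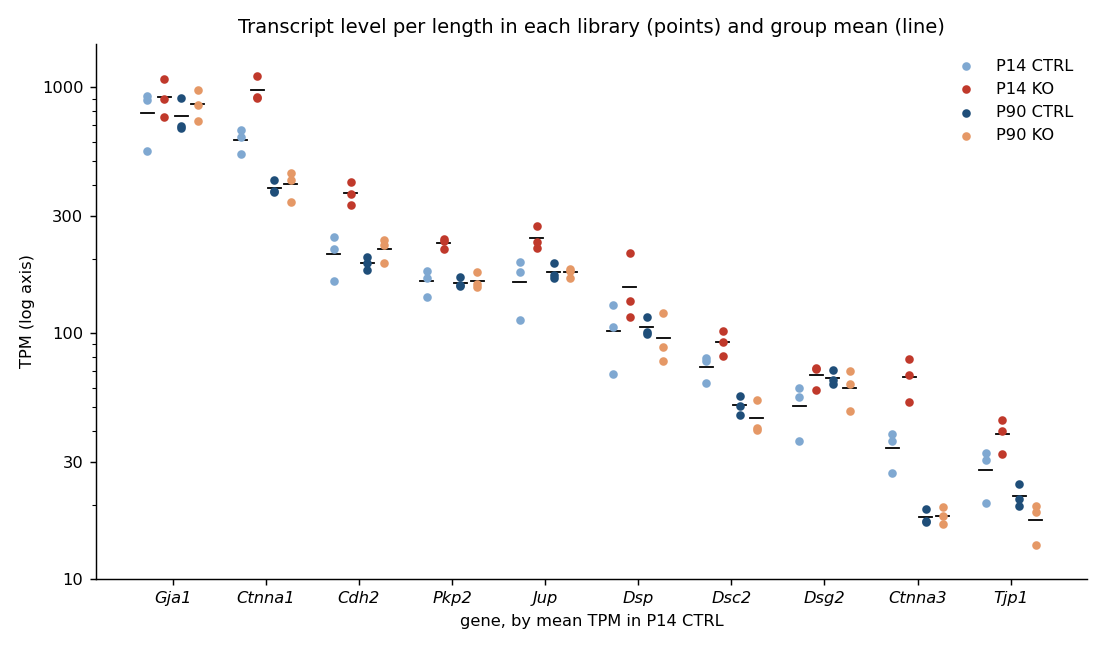
Transcript level per exon length (TPM, log axis) of the 10 junction genes, with 1 point per library, coloured by group, and a line at each group mean. Gja1 and Ctnna1 sit highest in every group, Ctnna3 and Tjp1 lowest, and the P14 KO points sit above P14 CTRL for most genes on this scale, which is not corrected by TMM.

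The effect of neonatal Srf loss was examined first. At P14, 2 of the 10 genes were up-regulated in KO and 0 were down-regulated, against 3.99% and 4.6% of the 12546 genes tested. Both were adherens junction genes, Cdh2 and Ctnna3. The fitted change was above 0 for 9 of the 10 genes, with a median log2 fold change of 0.25 beside 0.00 for all genes tested, and 50.2% of all genes were above 0.

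Among the adherens junction genes, Cdh2 was at 469, 414 and 520.05 CPM in P14 CTRL and at 683, 624 and 713 CPM in P14 KO. Every KO library was above every CTRL library, and the log2 fold change was 0.52 ± 0.12 (SE), a rise of 43.7% (adjusted p = 0.0375). Ctnna3 was at 69.9, 57.8 and 65.0 CPM in P14 CTRL and at 105, 82.8 and 114 CPM in P14 KO. Its groups were also separate, and it rose by 56.9% (log2 fold change 0.65 ± 0.14, adjusted p = 0.0302). Ctnna1 was at 1059, 1070.2 and 1119.8 CPM in P14 CTRL and at 1324, 1364 and 1516 CPM in P14 KO. Its KO libraries again lay above all CTRL libraries, but with a log2 fold change of 0.37 ± 0.11 it missed the threshold in edgeR (adjusted p = 0.0764) and passed it in DESeq2 (adjusted p = 0.0156), where 3 of the 10 genes and 6.19% of all genes tested were called higher. These 2 calls of edgeR were fragile. Ctnna3 lost its call when any of the 6 libraries was left out (log2 fold change 0.56 to 0.79, adjusted p = 0.0526 to 0.119), and Cdh2 when any library other than P14 CTRL replicate 3 was left out (0.44 to 0.59, adjusted p = 0.06 to 0.135).

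None of the desmosomal genes passed the test at P14, where 0 were called by edgeR and 0 by DESeq2. Dsp was at 466, 356 and 568 CPM in P14 CTRL and at 515, 449 and 753 CPM in P14 KO, so its groups overlapped widely (log2 fold change 0.30 ± 0.23, adjusted p = 0.46). Jup was at 408, 309 and 441 CPM in CTRL and at 443, 474 and 506 CPM in KO, which did not overlap, with a log2 fold change of 0.29 ± 0.15 (adjusted p = 0.25). Pkp2 was at 238, 220.34 and 220.18 CPM in CTRL and at 253, 282 and 254 CPM in KO. Its KO libraries also lay above the CTRL libraries, by a log2 fold change of 0.21 ± 0.10 (adjusted p = 0.226). The cadherins Dsg2 (0.12 ± 0.14, adjusted p = 0.655) and Dsc2 (0.02 ± 0.10, adjusted p = 0.921) overlapped between the groups, as did Tjp1 (0.19 ± 0.14, adjusted p = 0.463). In all, the KO libraries of 5 of the 10 genes lay above every CTRL library, as they did for 16% of all genes tested, and 0 of the 10 lay below, beside 16.7%.

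Gja1 did not pass the test at P14. It was at 1315, 928 and 1257 CPM in P14 CTRL and at 937, 1130 and 1240.4 CPM in P14 KO, and the groups overlapped over nearly their whole range. The log2 fold change was -0.08 ± 0.17 (adjusted p = 0.811), and it turned to 0.13 when libraries were scaled by their totals alone. The ratio of Gja1 to Cdh2 within a library does not depend on this scaling. On TPM it was 4.20, 3.36 and 3.62 in P14 CTRL and 2.05, 2.71 and 2.60 in P14 KO. The groups did not overlap, and the exact two-sided permutation test gave p = 0.1, the smallest value it can give with 3 libraries a group (adjusted p = 0.5 over the 15 ratio comparisons made). In P90 CTRL and P90 KO the same ratio was 3.53 to 4.46 and 3.72 to 4.10, and overlapped.

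Libraries differed within groups in a way that many of these genes shared. P14 CTRL replicate 2 had the lowest CPM of its group for 8 of the 10 genes. P14 KO replicate 3 had the highest of its group for 8 of the 10. The same shares over all genes were not counted, so this is not shown to be particular to the 10. The part of these library differences in the results was not tested. The choice of scaling also matters here: the TMM factors were 1.124 to 1.187 in P14 KO and 0.94 to 1.03 in P14 CTRL, and on library totals alone the median log2 fold change of all genes was 0.22. On that scale 4 of the 10 genes were called higher (Cdh2, Ctnna1, Ctnna3 and Pkp2), and the calls over all genes were 1405 higher and 319 lower in place of 501 and 577. The fold changes above are therefore relative to the bulk of the transcriptome.

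**Figure D2:**
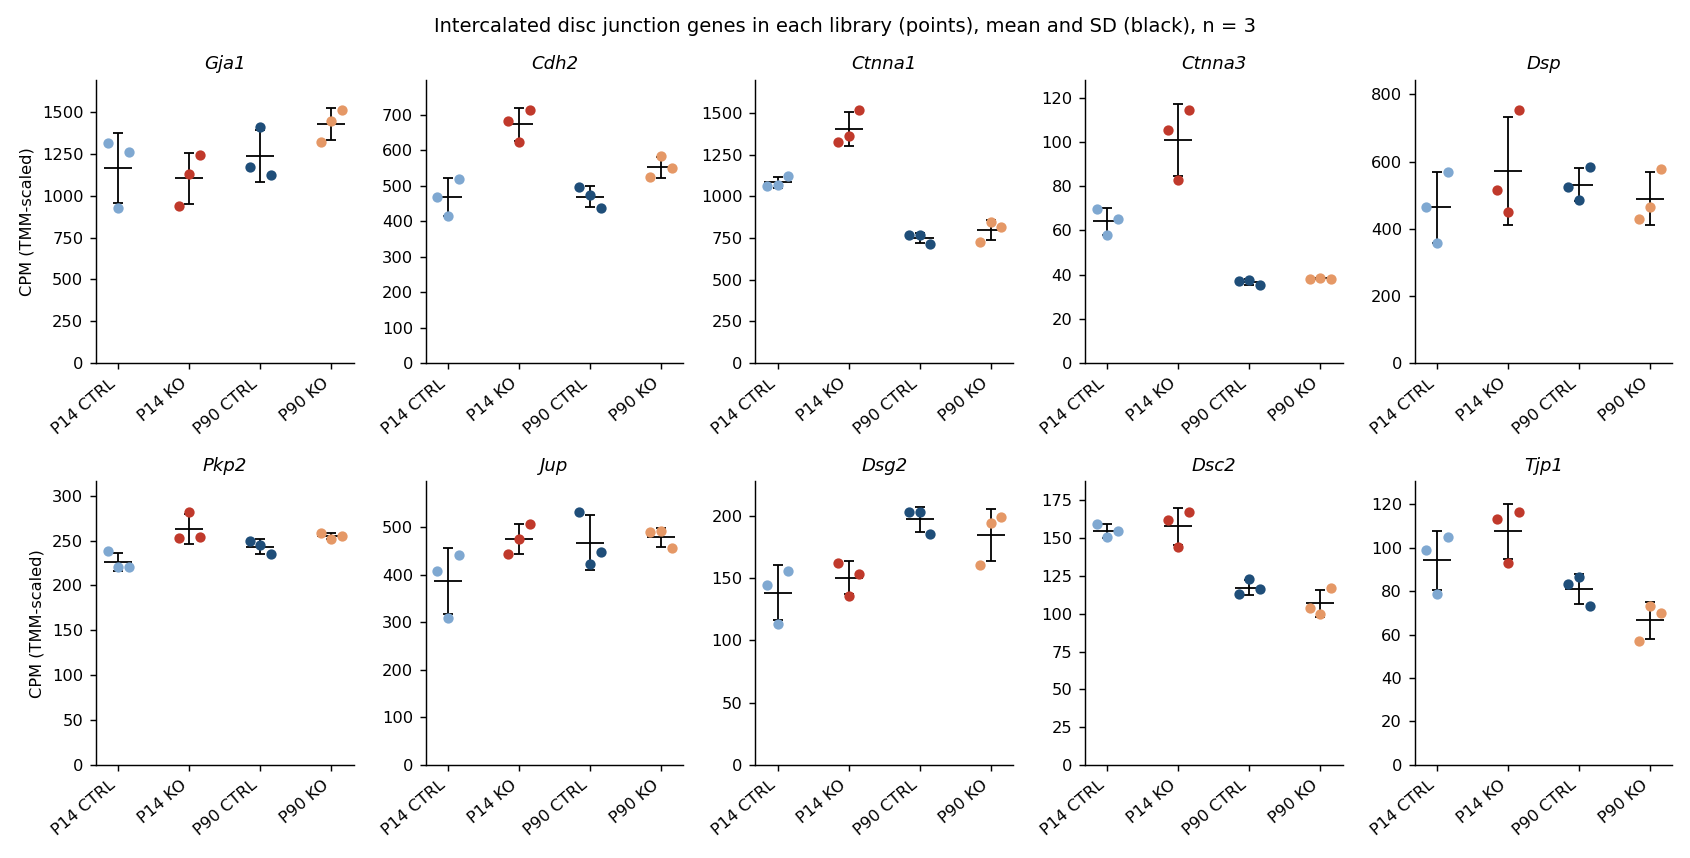
CPM (TMM-scaled) of the 10 junction genes in P14 CTRL, P14 KO, P90 CTRL and P90 KO, with 1 point per library and the group mean and SD (n = 3) in black. The KO libraries clear the CTRL libraries for Cdh2, Ctnna1, Ctnna3, Pkp2 and Jup at P14, while at P90 the Ctnna1 and Ctnna3 points of both genotypes sit together at lower levels.

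As SRF binds the CArG box, the 250 bases before each gene's start site in RefSeq (build GRCm38.p6) were searched for it on both strands. The box was found in 482 of 32851 such windows (1.47%). A window was at hand for 5 of the 10 genes (Gja1, Ctnna3, Dsp, Jup and Tjp1), and 0 of their 7 windows held it. Ctnna3 is shown because it had the largest change of the 10 in P14 KO, Gja1 because it had the highest TPM of the 10 in P14 CTRL and did not pass the test, and Vcl, the actin-anchoring adherens junction gene of the wider list described below, for contrast, since its window held a CArG box, written in capitals.
Ctnna3, chr10:63429848-63430097, plus strand: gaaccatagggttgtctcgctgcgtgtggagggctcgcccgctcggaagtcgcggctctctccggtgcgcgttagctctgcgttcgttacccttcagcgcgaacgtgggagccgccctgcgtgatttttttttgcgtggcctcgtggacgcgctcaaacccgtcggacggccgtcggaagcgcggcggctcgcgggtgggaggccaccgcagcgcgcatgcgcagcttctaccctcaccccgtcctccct
Gja1, chr10:56377050-56377299, plus strand: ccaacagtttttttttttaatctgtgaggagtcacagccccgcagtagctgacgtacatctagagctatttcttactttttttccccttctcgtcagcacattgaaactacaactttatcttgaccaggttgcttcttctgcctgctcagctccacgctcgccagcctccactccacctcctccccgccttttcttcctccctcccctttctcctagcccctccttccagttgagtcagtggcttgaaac
Vcl, chr14:20929148-20929397, plus strand: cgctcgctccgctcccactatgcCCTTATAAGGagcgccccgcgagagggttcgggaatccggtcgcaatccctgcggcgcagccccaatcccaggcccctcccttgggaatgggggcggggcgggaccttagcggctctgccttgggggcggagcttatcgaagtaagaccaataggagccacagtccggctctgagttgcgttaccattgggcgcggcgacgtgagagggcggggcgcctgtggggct
The box in Vcl begins 227 bases before the start site. Vcl was at 347, 348 and 330.33 CPM in P14 CTRL and at 353, 327 and 291 CPM in P14 KO, which overlapped (log2 fold change -0.08 ± 0.11, adjusted p = 0.702, and 0.13 on library totals). In the wider list 3 of 64 windows (4.69%) held a box, those of Vcl, Fermt2 and Nebl. Fermt2 (kindlin 2, an activator of integrins), named after its values were seen, was at 188, 251 and 168 CPM in P14 CTRL and at 150.35, 142 and 135 CPM in P14 KO. Its groups did not overlap, and the log2 fold change of -0.51 ± 0.16 missed the threshold in edgeR (adjusted p = 0.0825) and passed it in DESeq2 (adjusted p = 0.0308). Nebl had a log2 fold change of -0.07 ± 0.16 (adjusted p = 0.852). A match or its absence in these windows is a description of the letters and says nothing of binding there or elsewhere.

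The same comparison in adult CMs asks whether the junction genes respond once the cells are mature. At P90, 0 of the 10 genes were called by edgeR and 0 by DESeq2, against 0.237% of 11808 genes called higher and 0.152% called lower by edgeR. At an unadjusted p under 0.05 there were 2, Cdh2 and Tjp1, a share near the 16.2% of all genes tested. The fitted change was above 0 for 6 genes and below 0 for 4, with a median of 0.06.

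Cdh2 was at 496, 473 and 438 CPM in P90 CTRL and at 524, 583 and 552 CPM in P90 KO. The groups did not overlap, and the log2 fold change was 0.24 ± 0.09 (adjusted p = 0.236 by edgeR). Tjp1 went the other way, with 83.3, 86.7 and 73.3 CPM in P90 CTRL and 56.9, 72.9 and 70.04 CPM in P90 KO. Its KO libraries were all below the CTRL libraries, by a log2 fold change of -0.28 ± 0.12 (adjusted p = 0.267 by edgeR). Gja1 was at 1169, 1412 and 1122 CPM in P90 CTRL and at 1321, 1448 and 1509.9 CPM in P90 KO (0.21 ± 0.11, adjusted p = 0.355), with an overlap at CTRL replicate 2. The α-catenins had small changes. Ctnna3 was at 37.0, 37.7 and 35.2 CPM in P90 CTRL and at 38.1, 38.7 and 38.2 CPM in P90 KO (0.07 ± 0.09, adjusted p = 0.752), a narrow gap with all KO libraries above CTRL. Ctnna1 was at 765, 770.4 and 715 CPM and at 729, 847 and 816 CPM (0.09 ± 0.09, adjusted p = 0.666). The 5 desmosomal genes had log2 fold changes from -0.13 ± 0.10 for Dsc2 to 0.07 ± 0.08 for Pkp2, with adjusted p-values from 0.544 to 0.886. The KO libraries of Pkp2 (251 to 258 CPM) also lay above its CTRL libraries (235 to 250 CPM). Over all genes tested, 10.4% had every P90 KO library above P90 CTRL and 11.2% every P90 KO library below.

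Whether the KO effect itself differed between the stages was tested as an interaction in a fit of all 12 libraries. Its value was the P14 effect minus the P90 effect. The time from Cre delivery to collection also differed (P1 to P14, P60 to P90), and each stage has its own table. Stage therefore cannot be told apart here from that time, from handling or from sequencing. By edgeR 0 of the 10 genes passed, against 0.818% of 12841 genes called higher and 0.958% called lower, and 2 were below an unadjusted p of 0.05, a share near the 19% of all genes tested. Ctnna3 was the nearest, at 0.59 ± 0.17 (SE) on the log2 scale (adjusted p = 0.0855), and it passed in DESeq2 (0.57, adjusted p = 0.039), where 2.98% of all genes tested were called higher and it was the only one of the 10. Tjp1 followed at 0.47 ± 0.19 (adjusted p = 0.2) and Dsp at 0.42 ± 0.28 (adjusted p = 0.456). Cdh2, which was called at P14 and not at P90, had an interaction of 0.29 ± 0.15 (adjusted p = 0.314), so that its effects at the 2 stages were not shown to differ. Gja1 was the only gene with a value below 0 (-0.29 ± 0.21, adjusted p = 0.491).

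**Figure D3:**
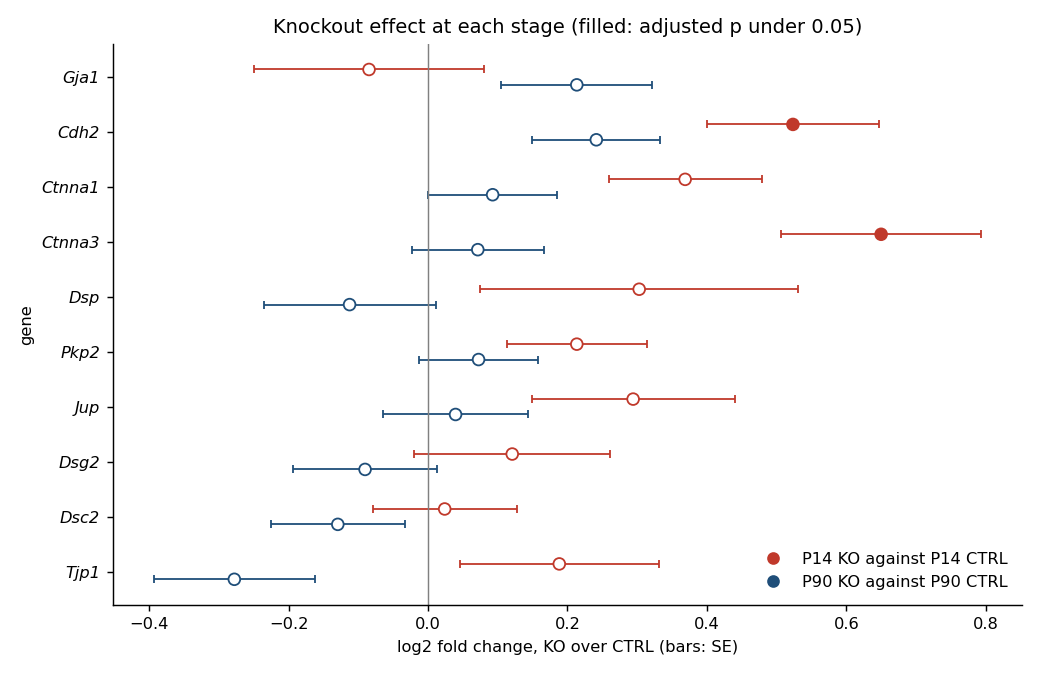
Log2 fold change of KO over CTRL for the 10 junction genes at P14 (red) and P90 (blue), with SE as bars. Filled points have an adjusted p under 0.05 in edgeR, which holds for Cdh2 and Ctnna3 at P14 and for no gene at P90.

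The CTRL groups at the 2 stages were then compared for the normal change of these genes between P14 and P90. These libraries are also the controls of the KO comparisons, so the values here and above share samples. Each stage has its own table, so stage cannot be told apart from differences in handling or sequencing between the tables. The age at Cre delivery differed too. Of the 10 genes, 1 was higher and 3 were lower in P90 CTRL, against 14.5% and 14.9% of 12294 genes tested.

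Both α-catenins were lower at P90. Ctnna3 went from 69.9, 57.8 and 65.0 CPM in P14 CTRL to 37.0, 37.7 and 35.2 CPM in P90 CTRL, a fall of 42.9% (log2 fold change -0.81 ± 0.12, adjusted p = 0.00163). Ctnna1 went from 1059, 1070.2 and 1119.8 CPM to 765, 770.4 and 715 CPM, a fall of 30.6% (-0.53 ± 0.10, adjusted p = 0.00502). The stages did not overlap for either gene, and both calls were kept under all 14 alternatives tried. Over all genes tested, 22.1% had every P90 CTRL library above P14 CTRL and 22.8% every P90 CTRL library below. The fitted fall was larger for Ctnna3 than for Ctnna1, but the falls were not shown to differ. The TPM ratio of Ctnna3 to Ctnna1 was 0.0618, 0.0506 and 0.0543 in P14 CTRL and 0.0453, 0.0458 and 0.0461 in P90 CTRL (exact two-sided permutation p = 0.1, the smallest possible, adjusted p = 0.5). Cdh2, the partner of the α-catenins, was nearly level, at 468 ± 53.1 CPM in P14 CTRL and 469 ± 29.3 CPM in P90 CTRL (0.01 ± 0.12, adjusted p = 0.978).

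The desmosomal cadherins moved in opposite directions. Dsg2 was at 145, 113 and 156 CPM in P14 CTRL and at 203.05, 203.11 and 186 CPM in P90 CTRL, a rise of 43.0% (0.52 ± 0.14, adjusted p = 0.0227). Dsc2 was at 159.7, 151 and 155 CPM in P14 CTRL and at 113, 123 and 116 CPM in P90 CTRL, a fall of 24.3% (-0.40 ± 0.10, adjusted p = 0.0171). Neither pair of groups overlapped, beside 22.1% of all genes tested with every P90 CTRL library above and 22.8% with every one below. The TPM ratio of Dsg2 to Dsc2 was 0.698, 0.580 and 0.778 in P14 CTRL and 1.39, 1.28 and 1.23 in P90 CTRL, so that desmocollin transcripts led at P14 and desmoglein transcripts at P90 in every CTRL library (exact two-sided permutation p = 0.1, the smallest possible, adjusted p = 0.5). The same held in the KO libraries, with 0.704 to 0.771 at P14 and 1.19 to 1.51 at P90. The call of Dsg2 was lost on library totals (0.40, adjusted p = 0.075) and without P90 CTRL replicate 1, 2 or 3 (0.49, 0.49 and 0.57, adjusted p = 0.0815, 0.0715 and 0.05). That of Dsc2 was lost without P14 CTRL replicate 1, P90 CTRL replicate 1 or P90 CTRL replicate 3 (-0.36, -0.37 and -0.38, adjusted p = 0.0662, 0.0707 and 0.08).

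The other 5 genes besides Cdh2 did not pass the test between the stages. Jup was at 386 ± 68.5 and 467 ± 57.4 CPM (0.28 ± 0.16, adjusted p = 0.218), Dsp at 463 ± 106 and 531 ± 49.9 CPM (0.20 ± 0.17, adjusted p = 0.414) and Pkp2 at 226 ± 10.2 and 243 ± 7.94 CPM (0.11 ± 0.10, adjusted p = 0.454). Gja1 was at 1167 ± 209 and 1234 ± 156 CPM (0.08 ± 0.16, adjusted p = 0.729), and Tjp1 at 94.2 ± 13.6 and 81.1 ± 6.95 CPM (-0.22 ± 0.14, adjusted p = 0.266). On library totals the changes of Gja1, Cdh2 and Pkp2 turned to -0.03, -0.11 and -0.01, and over all genes 1314 were called higher and 2368 lower in place of 1779 and 1828.

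**Figure D4:**
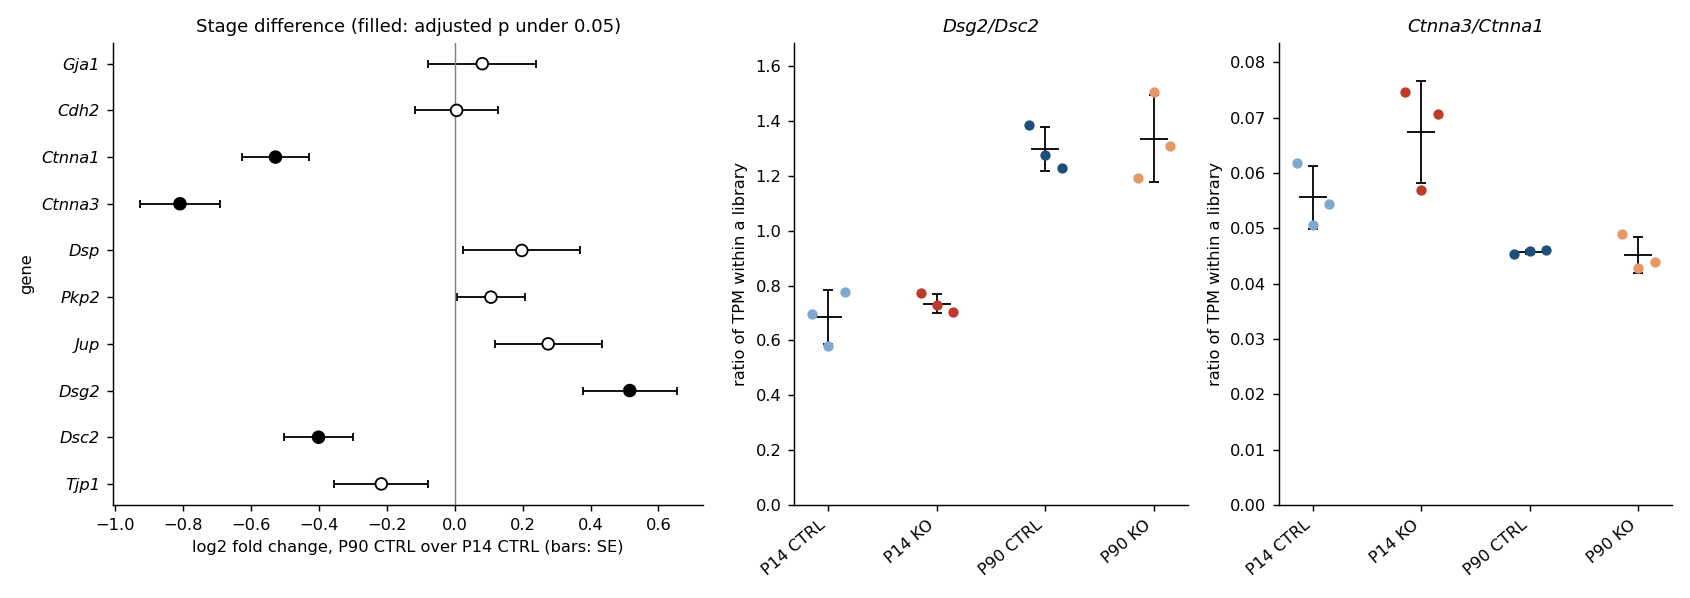
Left, log2 fold change of P90 CTRL over P14 CTRL for the 10 junction genes with SE as bars and filled points for an adjusted p under 0.05 in edgeR. Middle and right, the TPM ratios Dsg2/Dsc2 and Ctnna3/Ctnna1 in each library with group mean and SD (n = 3), where Dsg2/Dsc2 lies below 0.8 in the P14 libraries and above 1.1 in the P90 libraries.

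A wider list of 72 other junction and disc-associated genes was counted in the same fits. In P14 KO, 51 were tested, 5 were up-regulated and 1 was down-regulated, beside 3.99% and 4.6% of all genes, with a median log2 fold change of 0.11. By class, 0 of 6 other gap junction genes and 0 of 14 other adherens junction genes were higher. In the class listed as desmosomal it was 1 of 6, and that gene was Tmem43, a nuclear membrane gene. Of the scaffold and tight junction genes 1 of 8 was higher, and of the disc-associated genes 3 of 17. Xirp2, which encodes an actin-binding protein of the disc, was at 140.3, 118 and 154 CPM in P14 CTRL and at 325, 228 and 320.55 CPM in P14 KO, about a doubling (log2 fold change 1.08 ± 0.17, adjusted p = 0.0132). Tmem43, a nuclear membrane gene linked to arrhythmogenic cardiomyopathy, was at 34.8, 29.2 and 32.7 CPM in CTRL and at 59.0, 66.6 and 66.7 CPM in KO (0.99 ± 0.11, adjusted p = 0.00548). Flnc (filamin C, an actin cross-linker of Z-discs and discs) rose from 378 ± 68.3 to 662 ± 65.1 CPM (0.80 ± 0.16, adjusted p = 0.0214). F11r (junctional adhesion molecule A, at the cell surface) rose from 63.8 ± 8.91 to 109 ± 17.0 CPM (0.77 ± 0.15, adjusted p = 0.0225). Nrap, which encodes a protein of disc and growing myofibrils and is named here after its value was seen, rose from 589 ± 37.1 to 989 ± 118 CPM (0.75 ± 0.13, adjusted p = 0.0153). The gene that fell was Myzap (myozap, a disc protein that binds desmoplakin and ZO-1), from 611 ± 39.9 to 411 ± 17.0 CPM (-0.58 ± 0.11, adjusted p = 0.0189). The groups did not overlap for any of these 6, but the 6 were picked by the test on the same libraries. Over all genes tested, 16% had every KO library above CTRL and 16.7% every KO library below. DESeq2 called 14 of the 72 genes listed, beside 14% of the 12724 genes it tested. The count of 6 in edgeR fell to 1, 2 and 1 without P14 KO replicate 1, 2 and 3. Tmem43 was called in every one of the 14 alternatives (adjusted p at most 0.043).

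In P90 KO, 0 of the 46 genes of the wider list that were tested passed in edgeR, beside 0.237% of all genes higher and 0.152% lower. DESeq2 called 3 of the 72 genes listed, beside 2.87% of all genes it tested. Without the filter on low counts edgeR called 8, and it then also called 701 of all genes. Xirp2 and Flnc had log2 fold changes of -0.38 ± 0.15 (adjusted p = 0.246) and -0.43 ± 0.17 (adjusted p = 0.263), with overlapping groups, and both were called lower without that filter (adjusted p = 0.0306 and 0.0109). In the interaction, 3 of 51 were higher and 0 lower, beside 0.818% and 0.958% of all genes: Xirp2 (1.47 ± 0.25, adjusted p = 0.021), Flnc (1.24 ± 0.26, adjusted p = 0.0399) and Tmem43 (0.86 ± 0.17, adjusted p = 0.0286). That count fell to 1 without P14 KO replicate 1, P14 KO replicate 2 or P90 CTRL replicate 2, and to 0 without P14 KO replicate 3, P90 CTRL replicate 3, P90 KO replicate 1 or P90 KO replicate 2.

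**Figure D5:**
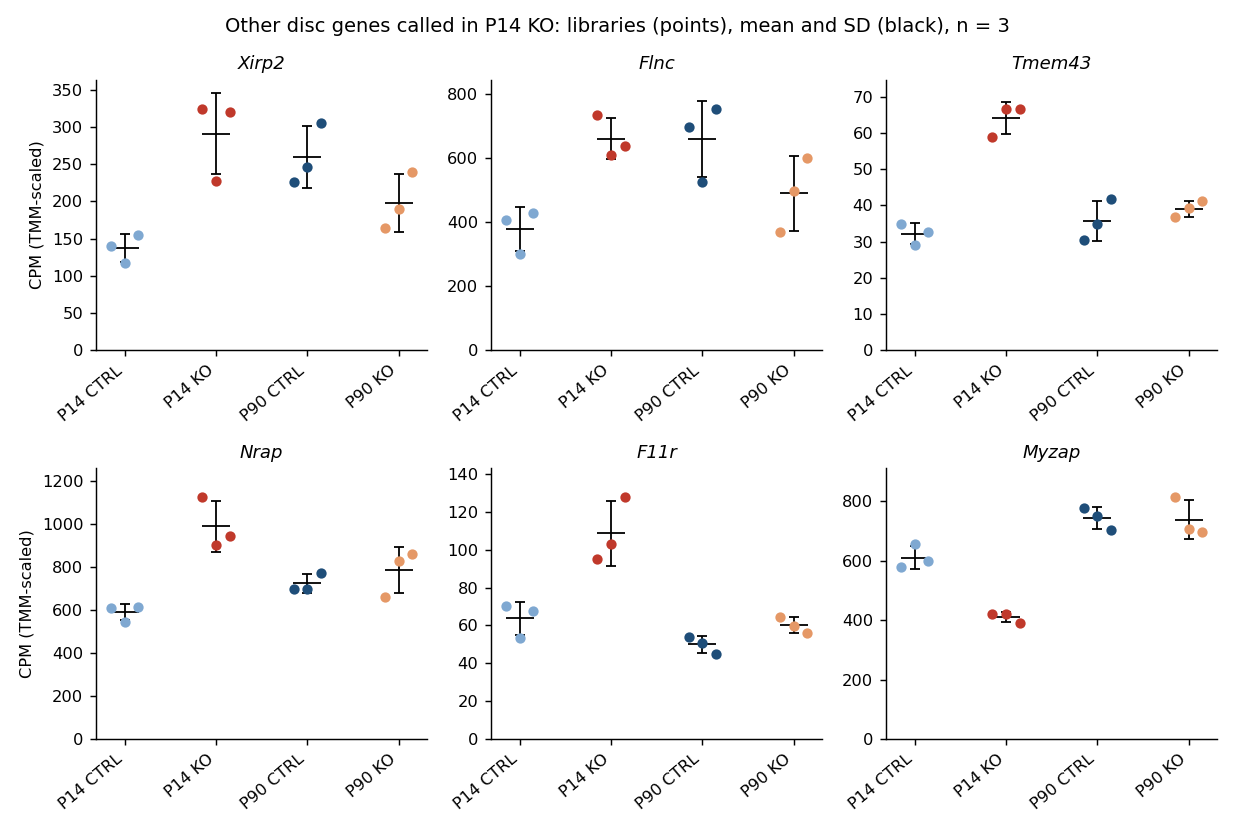
CPM (TMM-scaled) of the 6 genes of the wider list that were called in P14 KO, in each library (points) with the group mean and SD (n = 3) in black. Xirp2, Flnc, Tmem43, Nrap and F11r sit higher and Myzap lower in P14 KO than in P14 CTRL. The main edgeR fit called none of the 6 in P90 KO, while Xirp2 and Flnc were each called lower there in 2 of 14 alternatives.

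Between CTRL stages, 48 of the wider list were tested, 7 were higher and 16 lower in P90 CTRL, beside 14.5% and 14.9% of all genes. The 7 higher are near the background share. All 4 tested gap junction genes other than Gja1 were lower, and so were 7 of 14 adherens junction and 4 of 8 scaffold and tight junction genes, while 4 of 17 disc-associated genes were higher and 0 lower. Among the largest rises were Cdh4 (R-cadherin), from 0.757 ± 0.206 to 10.3 ± 4.0 CPM (log2 fold change 3.74 ± 0.37, adjusted p = 0.000259), Dlg1 (SAP97, a scaffold of ion channels; 1.40 ± 0.14, adjusted p = 0.000243) and Xirp2 (0.92 ± 0.15, adjusted p = 0.00299). The largest falls were Cldn5 (claudin 5; -2.23 ± 0.41, adjusted p = 0.00459), Gja4 (connexin 37; -1.72 ± 0.36, adjusted p = 0.00804), Cgnl1 (paracingulin; -1.68 ± 0.31, adjusted p = 0.00456) and Cdh11 (a cadherin of mesenchymal cells; -1.43 ± 0.30, adjusted p = 0.00777). The count of 23 fell to 12 without P14 CTRL replicate 1 and to 13, 15 and 13 without P90 CTRL replicate 1, 2 and 3, but the 7 genes named kept their calls under all alternatives. Cldn5, Gja4 and Cgnl1 are also made by endothelial cells and Cdh11 by fibroblasts. In the same comparison 5 of 8 endothelial and 5 of 7 tested fibroblast markers were lower, with summed levels of 256 to 525 and 117 to 326 CPM in P14 CTRL and of 234 to 304 and 52.1 to 73.3 CPM in P90 CTRL. The part of these cells in the falls was not tested.

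Last, the genes whose pattern over the 12 libraries was most like that of a called member were listed among the 8098 genes with a mean of at least 10 CPM, by the root mean square (RMS) difference of log2 CPM after each gene was centred on its mean. For Ctnna3 these were Parva (α-parvin, an adaptor of integrin adhesions) and Itga3 (integrin α3), with RMS differences of 0.10 and 0.13 beside an SD of 0.62 for Ctnna3 itself. For Ctnna1 they were Stx5a and Sh3gl1 (0.08 and 0.08, SD 0.38), and for Cdh2 they were Hgs and Faf2 (0.07 and 0.07, SD 0.25). For Dsg2 they were Synrg and Nfe2l1 (0.09 and 0.09, SD 0.26), and for Dsc2 they were Pbrm1 and Krba1 (0.07 and 0.07, SD 0.27). The points share libraries and depth, so likeness over them is a description.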

How the data were processed

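RNA of the sorted CMs was converted to cDNA and amplified with SMART-Seq v4, and Nextera XT libraries were read by single-end sequencing. The authors deposited raw counts per gene, not normalized, in 2 tables, 1 per stage. Their processing notes name CASAVA 1.8, STAR 2.5.3a, featureCounts and Subread 1.5.2, with the build mm10. The strand setting and the treatment of multimapping reads are not given in the sources used here.

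Samples were grouped by their titles. The main test was that of edgeR 4.0.16 under R 4.3.3 (filterByExpr, TMM, quasi-likelihood F-test, Benjamini-Hochberg adjustment over all genes tested, adjusted p under 0.05), and DESeq2 1.42.0, which the authors used, was an alternative. Each KO comparison used the 6 libraries of its stage, the stage comparison the 6 CTRL libraries and the interaction all 12. The SE was the log2 fold change divided by the square root of F. CPM used TMM-scaled library sizes over 12 libraries, and TPM used library totals and exon lengths. A floor of 3 counts is 0.1299 to 0.308 CPM on library totals, without TMM scaling. Reads carry no molecular identifiers, so the floor covers counting error only. The scripts were tested on simulated data.

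The members, the wider list, the markers and the tests were chosen with earlier results of these data known. Named were all 10 members, Srf, at most the 4 largest called changes of the wider list per direction and comparison, and the 2 genes nearest in pattern to each called member; 1 gene that the rule would name is not reported here. Vcl, Nrap, Fermt2, Nebl and the CArG box were added after values were seen. Alternatives were RLE size factors, DESeq2, no filter, a replicate block, a gene length offset (loess span 0.3), all 12 samples in 1 fit and leaving out each library. Scaling by library totals was added after seeing the data.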

Additional observations from a re-analysis of the deposited data

Results flagged for a closer look

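Of the junction and disc-associated genes, 3 had a KO effect that differed between the stages by the interaction test in edgeR. In this test stage cannot be told apart from the time since Cre delivery, handling or sequencing. Xirp2 was 1.47 higher on the log2 scale in its P14 effect than in its P90 effect (adjusted p = 0.021), Flnc 1.24 (adjusted p = 0.0399) and Tmem43 0.86 (adjusted p = 0.0286). Xirp2 and Flnc were higher in each P14 KO library than in each P14 CTRL library, while their P90 groups overlapped with means of 198 and 490 CPM in KO beside 260 and 660 CPM in CTRL. Tmem43 had P90 means of 39.1 CPM in KO and 35.7 CPM in CTRL. Leaving out a library ended the call of Xirp2 for P14 KO replicate 3, P90 CTRL replicate 3, P90 KO replicate 1 and P90 KO replicate 2 (adjusted p = 0.0533, 0.0633, 0.0616 and 0.0719). Flnc lost its call without P14 CTRL replicate 2 and without any P14 KO, P90 CTRL or P90 KO library other than P90 KO replicate 3 (1.08 to 1.38, adjusted p = 0.0503 to 0.108), and Tmem43 without P14 KO replicate 1, 2 or 3, P90 CTRL replicate 2 or 3 or P90 KO replicate 1 or 2 (0.74 to 0.91, adjusted p = 0.0502 to 0.0928). Over all 19 alternatives the interaction of Xirp2 was 0.99 to 1.64, that of Flnc 0.88 to 1.41, called in 10, and that of Tmem43 0.74 to 1.03, called in 12.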

How the results depend on the processing

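Of 610 refits of the fold changes of the 10 genes, 561 kept direction and side of the threshold, 18 lost a call, 9 gained one and 22 changed sign. The 22 sign changes were of values that passed no test.

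At P14, 2 of the 10 genes were called, and 4 on library totals. Of all genes 1078 were called, 1787 by DESeq2, 2088 with all 12 samples in 1 fit and 1724 on library totals. Leaving out 1 library gave 0 to 1 of the 10 and 111 to 1004 of all genes, with 202, 111 and 181 without P14 KO replicate 1, 2 and 3. At P90, 0 of the 10 were called, and 1 with the gene length offset and replicate block (Cdh2, 0.32, adjusted p = 0.0497). Of all genes 46 were called, 312 by DESeq2, 701 without a filter, 655 with the replicate block, 85 with the gene length offset, 212 with both, 3 with all 12 samples in 1 fit and 6 to 51 without 1 library. For the interaction, 0 of the 10 were called, and 1 by DESeq2 and 1 with the replicate block (Ctnna3 both times; 0.58, adjusted p = 0.0343 with the block). Of all genes 228 were called, 894 by DESeq2, 474 without a filter, 687 with the replicate block and 4 to 377 without 1 library. Between CTRL stages, 4 of the 10 and 3607 of all genes were called, and 2 to 5 and 2067 to 4768 without 1 library. Srf at P90 missed the threshold with all 12 samples in 1 fit (adjusted p = 0.18).

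Sign changes came with the gene length offset, without and with the block, for Dsc2 at P14 (-0.037 and -0.039), Dsp and Dsg2 at P90 (0.14 and 0.14, 0.033 and 0.032) and Cdh2 between CTRL stages (-0.013 and -0.010). On library totals they came for Gja1 and Vcl at P14 (0.13 and 0.13) and for Gja1, Cdh2 and Pkp2 between CTRL stages (-0.03, -0.11 and -0.0066). Without 1 library the P14 values ran from -0.22 to 0.027 for Gja1, from -7e-04 to 0.22 for Dsg2, from -0.0052 to 0.10 for Dsc2 and from -0.14 to 0.0039 for Vcl, the P90 value of Jup from -0.033 to 0.14, and the CTRL stage values from -0.075 to 0.19 for Gja1 and from -0.091 to 0.096 for Cdh2. The cause of these shifts was not tested.

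The labels do not say whether replicate numbers pair the samples, and 3 libraries a group are too few to decide it. Same-numbered libraries correlated in their deviations by 0.074, 0.152 and 0.394 at P14, by 0.271, 0.0233 and 0.0842 at P90 and by -0.115, -0.035 and -0.0383 between CTRL stages, and not every library correlated best with its own number. With the replicate block 2, 0, 1 and 4 of the 10 genes and 1529, 655, 687 and 3139 of all genes were called at P14, at P90, in the interaction and between CTRL stages. Of the wider list the block gave 10, 8, 6 and 19 in place of 6, 0, 3 and 23, with Xirp2 (-0.39, adjusted p = 0.0206) and Flnc (-0.44, adjusted p = 0.0437) called lower at P90.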
